A study of Mus musculus with 38 samples.

Results

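The genes described here are the drug- and toxin-metabolising enzymes of the cytochrome P450 (Cyp), glutathione S-transferase (Gst), UDP-glucuronosyltransferase (Ugt) and sulfotransferase (Sult) families, measured in mouse intestinal stem cell organoids. They were chosen by symbol alone: Cyp families 1 to 4, Gst classes a, k, m, p, t and z, Ugt1a, Ugt2a and Ugt2b, and all Sult genes, without pseudogenes. This gave 135 of the 54352 genes in the count table, and all 135 are annotated as protein coding. A total of 95 members had a count in at least 1 library and 40 had none.

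The organoids were grown from crypts of C57BL6 mice in 65% matrigel for 8 days over 2 passages, and RNA was taken with TRI reagent. Wild-type organoids (WT) were compared with organoids lacking Ppard (D, labelled Ppard-fl/fl, with no recombinase named), lacking Ppara (A, labelled as null) or lacking both (DA). Each genotype was grown with 1 uM GW501516 (GW), a synthetic ligand that activates PPARδ, the nuclear receptor encoded by Ppard, or with the vehicle, and both treatments contained 0.1% DMSO. Polyadenylated RNA was profiled by 3′ digital gene expression, which counts tags from the ends of transcripts. WT had 5 vehicle and 5 GW libraries, D had 5 and 3, A had 5 of each, and DA had 4 and 5, which makes 37. The labels do not say whether these came from separate animals or cultures, so every p-value reflects at most library-to-library spread and nothing wider. 1 further sample, whose title and genotype label disagreed, was left ungrouped, and the 3 columns used for GW in D may include it.

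Cytochrome P450 enzymes are haem proteins that insert oxygen into lipophilic compounds, the first phase of their metabolism. Gst, Ugt and Sult enzymes then attach glutathione, glucuronic acid or sulfate, which makes the products water-soluble and ready for export. The intestinal epithelium carries many of these enzymes and is the first tissue to meet compounds taken with food. Cyp4a enzymes hydroxylate the terminal carbon of fatty acids, and their genes are classical targets of PPARα in liver.

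Library totals ran from 353347 to 577557 counts, and 9660 to 11085 genes had a count. Ppara had 4 to 13 counts in the WT vehicle libraries, 2 to 11 in WT under GW, 1 to 9 in D vehicle, 1 to 13 in D under GW and 0 to 3 in each A or DA library, so that of these only WT vehicle had no overlap with A and DA, while Ppard had 0 to 4 counts in any library, too few to check its deletion. Floxed exons may also lie outside the part of the transcript that a 3′ tag reads. All 12 enterocyte markers and all 8 each of the stem, Paneth, goblet and enteroendocrine lists had counts. Tuft, stromal and immune lists had 14, 8 and 44 counts over the 37 libraries, with Trpm5, Col1a1 and Ptprc among the markers at 0. Of 8 hepatocyte markers, Serpina1a, Fgb and Tat were at 0 and the other 5 had 2149 counts in all, with summed group means of 97.1 to 143 CPM. In bulk RNA, fewer cells of a type and less RNA per cell cannot be told apart.

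Because tags come from transcript ends, members with nearly the same end are hard to separate. The coding ends below show how alike some members are. The last 60 coding bases before and including the stop codon are taken from the GENCODE M21 transcripts (GRCm38), with capitals where a base differs from the first gene of its set. The Cyp4a set is shown because Cyp4a10 carries the clearest GW difference described here.
Cyp4a10: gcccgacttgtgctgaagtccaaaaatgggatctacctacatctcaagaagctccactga
Cyp4a31: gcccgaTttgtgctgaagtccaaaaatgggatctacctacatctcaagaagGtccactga
Cyp4a32: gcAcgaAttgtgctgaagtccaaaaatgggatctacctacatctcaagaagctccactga
Cyp4a14: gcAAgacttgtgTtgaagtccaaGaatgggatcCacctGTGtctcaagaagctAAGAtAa
Cyp4a31 and Cyp4a32 each differ from Cyp4a10 at 2 of these 60 bases, and Cyp4a14 differs at 13. The annotated transcripts run on past the stop codon for 521 bases in Cyp4a10, 911 in Cyp4a31 and 943 in Cyp4a14. Tags from these transcript ends would thus lie outside the bases shown. Of the 31-base words in the last 500 bases of Cyp4a10 transcripts, 13.4% also occur in Cyp4a31, so most of the Cyp4a10 end is its own. All 12 nonzero values of Cyp4a10 were whole counts.

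The most abundant member, Gsta1, has the opposite situation. Its coding end is the same as that of Gm3776, a predicted gene that the symbol rule does not take in.
Gsta1: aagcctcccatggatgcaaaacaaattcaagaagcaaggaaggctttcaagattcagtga
Gm3776: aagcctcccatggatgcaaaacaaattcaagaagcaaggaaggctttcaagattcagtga
Over the whole coding sequence the pair is 99.7% identical, and the table gives 208580 counts to Gsta1 and 25164 to Gm3776. The Ugt1a genes have different first exons spliced to shared last exons, and the table lists Ugt1a7c with 7228 counts and Ugt1a1 with 60. The Ugt1a7c value is therefore read here as a value of the Ugt1a cluster and not of a single enzyme. Gstp1 shares 83.4% of its 31-base words with Gstp2. In 12 of the 44 members that could be tested, most nonzero values were not whole before rounding. They were Cyp2c65, Cyp2c66, Gsta1, Gsta2, Gstm1, Gstm3, Gstm6, Gstp1, Gstp2, Ugt1a7c, Ugt2b34 and Ugt2a3. These 12 hold 73.3% of all member counts and are uncertain as single genes.

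Member transcripts took 1.74% to 3.23% of each library. Levels are given as CPM, the count of a gene per 1000000 counts of its library, and are not divided by length, since a 3′ tag is counted once per transcript end. In each of the 8 groups Gsta had the highest summed mean, followed by Gstm, Cyp2 and Gstp. Gsta alone held 57.4% of the member counts, Gstm 13.3%, Cyp2 10.1% and Gstp 6.90%.

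**Figure D1:**
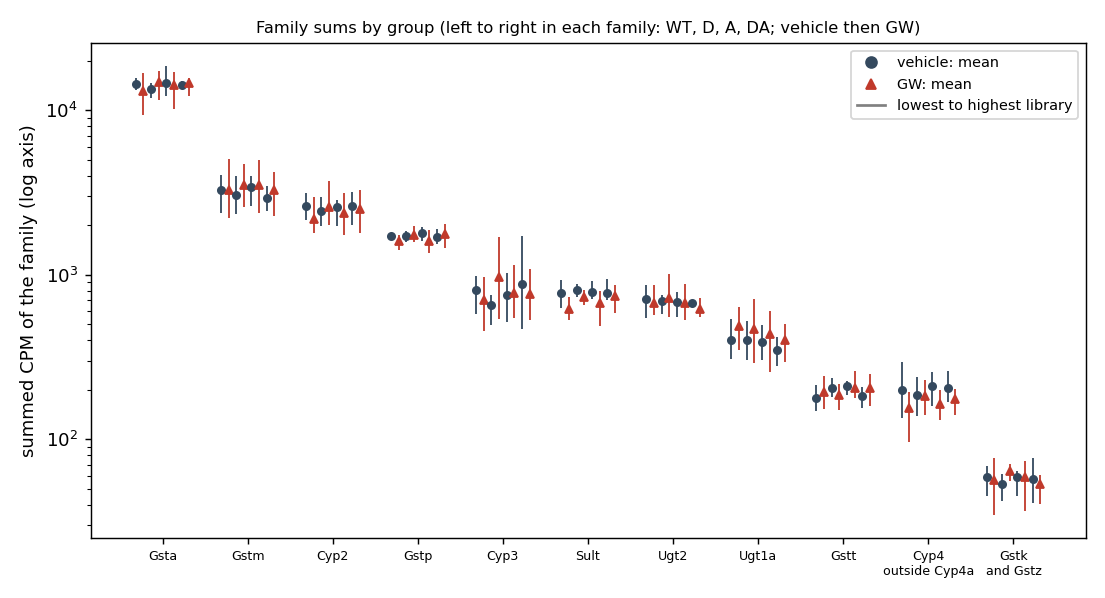
Summed CPM of the members of each family (log axis) in the 8 groups, with the group mean as a circle (vehicle) or triangle (GW) and a line from the lowest to the highest library. Families differ widely in level, while the 8 group ranges of Gsta, with means from 13027 to 14914 CPM, all overlap.

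Phase I levels were set by a few genes. Cyp2c29 and Cyp2c55, P450 enzymes of the Cyp2c cluster, had the highest means in the Cyp2 family. Cyp2c55 had 555 ± 88.9 CPM in WT vehicle and 518 ± 92.7 CPM under GW (SD, n = 5 each), and its other groups lay between 511 and 593 CPM. Cyp3a11 and Cyp3a13, mouse relatives of human CYP3A4, had 372 ± 100.4 and 344 ± 74.0 CPM in WT vehicle. Their GW values in WT were 321 ± 129 and 294 ± 71.1 CPM (n = 5), within that spread. The highest of their 8 group means were 471 ± 368 CPM for Cyp3a11 (GW in D, n = 3) and 408 ± 253 CPM for Cyp3a13 (DA vehicle, n = 4), each in a group with 1 library far above its others (891 and 773 CPM). Cyp4f14 and Cyp4b1 led the Cyp4 genes outside Cyp4a, with 132 ± 40.2 and 24.5 ± 7.70 CPM in WT vehicle. Cyp1 genes were near the limit of detection: Cyp1a1, the standard readout of the aryl hydrocarbon receptor, had 62 counts over 24 libraries, Cyp1b1 had 2 and Cyp1a2 had 1. The group means of Cyp1a1 ran from 0.463 ± 0.927 CPM in DA vehicle (n = 4) to 8.45 ± 6.68 CPM in WT under GW (n = 5), and the gene was not tested.

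Among the conjugating enzymes, Gsta1 had 12145 ± 915 CPM in WT vehicle and 10948 ± 2457 CPM under GW (SD, n = 5 each), the highest and lowest groups differing 1.15-fold (12619 CPM for GW in D). Gsta4, which conjugates products of lipid peroxidation such as 4-hydroxynonenal, ran from 1852 ± 461 CPM (WT under GW, n = 5) to 2537 ± 412 CPM (DA under GW, n = 5). Gstm3 and Gstm1 had 1689 ± 396 and 1343 ± 347 CPM in WT vehicle, and Gstp1 had 1703 ± 55.4 CPM. Over the 8 groups their means ran from 1495 to 1800.3 CPM for Gstm3, from 1211 to 1487 CPM for Gstm1 and from 1583 to 1774 CPM for Gstp1. Gstp1 varied least of the tested members, with a median within-group coefficient of variation of 8.69%. The lower Gst classes were Gstt2 at 105 ± 17.6, Gstt3 at 37.8 ± 13.6, Gstz1 at 33.5 ± 7.90 and Gstk1 at 25.2 ± 2.74 CPM in WT vehicle. Ugt2b34 and Ugt2b5 had 415 ± 88.2 and 181 ± 34.7 CPM, and the Ugt1a cluster, under Ugt1a7c, had 397 ± 87.4 CPM. Sult1d1 and Sult1b1, cytosolic sulfotransferases for phenols and catecholamines, had 279 ± 32.1 and 242 ± 24.1 CPM (n = 5). Over the 8 groups Ugt2b34 ran from 382 to 424 CPM, Ugt2b5 from 149 to 218, the Ugt1a cluster from 346 to 479, Sult1d1 from 228 to 291 and Sult1b1 from 189.7 to 272 CPM. Of the 21 Sult members, 13 had no count in any library, including Sult1a1, Sult1e1 and every listed Sult2a gene.

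The spread between groups was small for most members. The ratio of the highest to the lowest of the 8 group means had a median of 1.43 over the 44 tested members, was below 1.5 in 29 and exceeded 2 in 3. Those 3 were Gstp2 (2.90), Sult2b1 (2.40) and Cyp2e1 (2.03), with 233, 236 and 302 counts in all. The median within-group coefficient of variation was 24.7%.

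Cyp4a10 was detected mainly under GW, and there in WT and D organoids. This fatty acid ω-hydroxylase (ENSMUSG00000066072, GRCm38 chromosome 4, 115518264 to 115533649, plus strand) had 39 counts in the 37 libraries. In WT it had 0 counts in all 5 vehicle libraries and 3, 10, 1, 1 and 8 counts under GW, or 6.06, 22.4, 2.35, 2.47 and 15.8 CPM. Every WT library under GW lay above every WT vehicle library. In D it had 1, 1, 0, 0 and 0 counts in vehicle and 7, 3 and 2 counts under GW (15.2, 6.41 and 5.64 CPM), again without overlap. In A and DA the vehicle libraries were all at 0, and 1 of the 5 GW libraries of each genotype held a single count (2.01 and 2.53 CPM).

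The mean under GW was therefore 9.81 ± 8.91 CPM in WT (SD, n = 5) and 9.10 ± 5.33 CPM in D (n = 3), against 0.402 ± 0.899 CPM in A and 0.506 ± 1.13 CPM in DA (n = 5 each). With the WT vehicle group set to the floor of 3 counts over the group, pooled Cyp4a10 was 8.30-fold higher under GW. The 23 GW counts entered that ratio as observed, so it is not a lower bound. The difference from vehicle in WT had an exact two-sided permutation p of 0.00794 (Benjamini-Hochberg adjusted over 7 comparisons 0.0278). That p is the smallest that 5 against 5 libraries allow. In D the pooled ratio was 11.6, with a 95% counting interval of 2.58 to 106 (exact permutation p = 0.0357, adjusted 0.0625), the smallest p for 3 against 5 libraries, so it missed the threshold after adjustment. In A and in DA the difference from vehicle had an exact permutation p of 1. Under GW, Cyp4a10 was lower in A than in WT, with a difference of -9.41 CPM (exact permutation p = 0.00794, adjusted 0.0278). In DA the difference from WT was -9.31 CPM (exact permutation p = 0.0238, adjusted 0.0556), past the threshold only before adjustment. D minus WT under GW was -0.715 CPM (exact permutation p = 0.964), a ratio of 0.927 with a counting interval of 0.421 to 1.94. Differences inside that interval were not detectable. The interval leaves out library-to-library spread, so it is not a limit on the size of the difference.

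**Figure D2:**
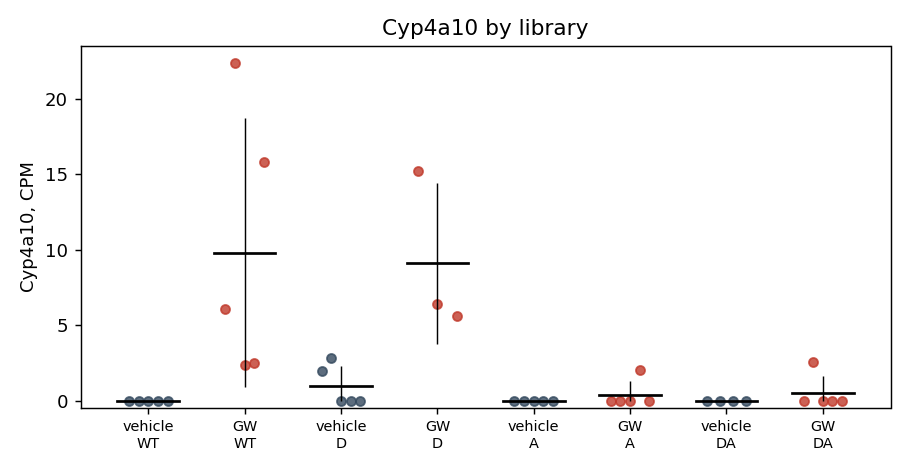
Cyp4a10 CPM in each of the 37 libraries by genotype and treatment, with the group mean (bar) and 1 SD (line). All WT and D libraries under GW lie at or above 2.35 CPM, and the A and DA groups sit at 0 apart from a single library each at 2.01 and 2.53 CPM.

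Cyp4a10 did not pass the low-count filter of the genome-wide fit. Without the filter, edgeR's quasi-likelihood F-test, adjusted over all genes by the Benjamini-Hochberg method, called it for GW in WT (adjusted p = 0.00116), in A against WT under GW (adjusted p = 0.00986) and in DA against WT under GW (adjusted p = 0.00588), but not for GW in D (adjusted p = 0.649). That fit called 0.223%, 0.287%, 0.545% and 0.0396% of its 20192 genes in these 4 comparisons. Its p-values for Cyp4a10 equal normal ones for the log2 fold change over its SE. The spread behind them was in effect shared over all genes, and was not the library-to-library spread of Cyp4a10 itself. A filter at a minimum count of 2 let it in only through GW libraries of WT and D, where it is high, so its call there for GW in WT (edgeR adjusted p = 0.0181, with 0.185% of 10813 genes called) is a description and no further support. Only a few tags stand behind each value, and within each set of library numbers the permutation tests could not reach 0.05. The test of this gene was chosen after its counts were seen. Of the other Cyp4a genes, Cyp4a31 had 1 count, in a WT library under GW, and Cyp4a14, Cyp4a29 and Cyp4a32 had none. Cyp4a29 and Cyp4a32 have 0 annotated bases after the stop codon, so their lack of counts says little about their level.

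As a reference, 2 known PPAR targets outside these families responded more broadly. Acot1, a peroxisome proliferator-induced thioesterase, rose under GW in WT (log2 fold change 2.78 ± 0.34 SE, adjusted p = 1.05e-06) (edgeR). Its change in A was 1.70 ± 0.34 (edgeR adjusted p = 0.00811). Angptl4, an inhibitor of lipoprotein lipase, rose by 1.95 ± 0.24 in WT and by 1.38 ± 0.24 in A (edgeR adjusted p = 1.22e-06 and 0.00101). In D, Acot1 and Angptl4 had log2 fold changes of 1.08 ± 0.37 and 1.02 ± 0.26 and missed the threshold (edgeR, adjusted p = 0.99989 and 0.696). In DA they had -0.59 ± 0.34 and 0.01 ± 0.24. Their DA vehicle level was already above that of WT vehicle, with Acot1 at 30.2 ± 13.3 against 8.96 ± 5.03 CPM (SD). The log2 fold changes of DA against WT in vehicle were 1.67 ± 0.39 for Acot1 and 1.02 ± 0.27 for Angptl4 (edgeR adjusted p = 0.0409 and 0.111). In A, then, Cyp4a10 stayed at 0 to 1 counts per library while both of these genes rose.

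The remaining members were tested across all genes with enough counts: 44 of the 135 members were among the 4902 genes tested, and these 44 hold 99.7% of the member counts. The tested members were 9 Cyp2, 3 Cyp3, 3 Cyp4, 4 Gsta, 7 Gstm, 2 Gstp, 3 Gstt, 2 Gstk and Gstz, 1 Ugt1a, 5 Ugt2 and 5 Sult genes. The other 51 members with counts held at most 176 counts each, the highest being Cyp4v3.

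GW against vehicle in WT asked which genes the agonist changes when both receptors are present. No tested member was called in WT by edgeR's quasi-likelihood test, where 0.408% of all tested genes were called, and DESeq2 and limma-trend also called none. At an unadjusted p of 0.05, 5 members passed, where 6.18% of all genes did. The members leaned to lower values, with 12 higher and 32 lower and a median log2 fold change of -0.16, while 51.1% of all genes were higher and their median was 0.01. All 9 Cyp2 and all 3 Cyp3 genes had fitted values below 0, with medians of -0.25 and -0.26. The number of members above 0 ran from 6 to 15 under the alternatives, with 15 reached without GW_WT replicate 1, and 6 without GW_WT replicate 2 and within the libraries numbered 37 to 60. Enterocyte markers summed to 3693 to 5343 CPM in the WT vehicle libraries and 5163 to 7342 CPM under GW. Of the 11 tested, 5 were higher and 6 lower, with a median log2 fold change of -0.04 and none called, and their part in these values was not tested.

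Ugt2a3, a glucuronosyltransferase of bile acids, had the smallest p of the members here. Its CPM was 39.6, 40.5, 51.1, 62.7 and 68.3 in WT vehicle and 24.7, 25.7, 28.3, 38.1 and 46.5 under GW. Of the 5 GW libraries, 4 lay below every vehicle library. The log2 fold change was -0.71 ± 0.23 (SE; edgeR adjusted p = 0.324), and it missed the threshold. It was -0.25 within the libraries numbered 1 to 36 and -1.44 within 37 to 60. The -1.44 came from 62.7 and 68.3 CPM in vehicle and 24.7 and 25.7 CPM under GW. Cyp2c29, a P450 of the liver and gut that oxidises arachidonic acid and other lipids, had 527, 693, 762, 783 and 848 CPM in WT vehicle and 302, 333, 469, 567 and 665 CPM under GW. Of the GW libraries, 3 lay below every vehicle library and 2 within their range. The log2 fold change was -0.67 ± 0.26 (edgeR adjusted p = 0.550). It passed only when genes of low count were left in (-0.71, edgeR adjusted p = 0.00674), in the fit with a spread shared over genes.

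The other 3 members with an unadjusted p under 0.05 were also lower under GW, and their ranges overlapped. Sult1b1 had 211 to 277 CPM in vehicle and 158 to 230.3 CPM under GW (log2 fold change -0.39 ± 0.16). Cyp4f14, which hydroxylates leukotriene B4, had 85.5 to 193 CPM and 51.8 to 123 CPM (-0.58 ± 0.24). Cyp2c68 had 45.0 to 82.2 CPM and 33.0 to 60.4 CPM (-0.58 ± 0.25). None of the 3 passed adjustment in edgeR, with adjusted p of 0.690, 0.690 and 0.695.

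The abundant members gave tight intervals around no change. Gsta1 had a log2 fold change of -0.19 in WT with a 95% interval of -0.51 to 0.13, and Gstp1 had -0.15 with -0.35 to 0.05. Cyp2c55 had -0.13 (-0.47 to 0.21), Gstm3 -0.05 (-0.47 to 0.36) and Ugt2b34 -0.15 (-0.42 to 0.11). The Ugt1a cluster had 0.24 (-0.14 to 0.61). For 35 of the 44 members the whole interval lay within 2-fold of no change, so a larger GW effect on these in WT is outside their intervals.

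**Figure D3:**
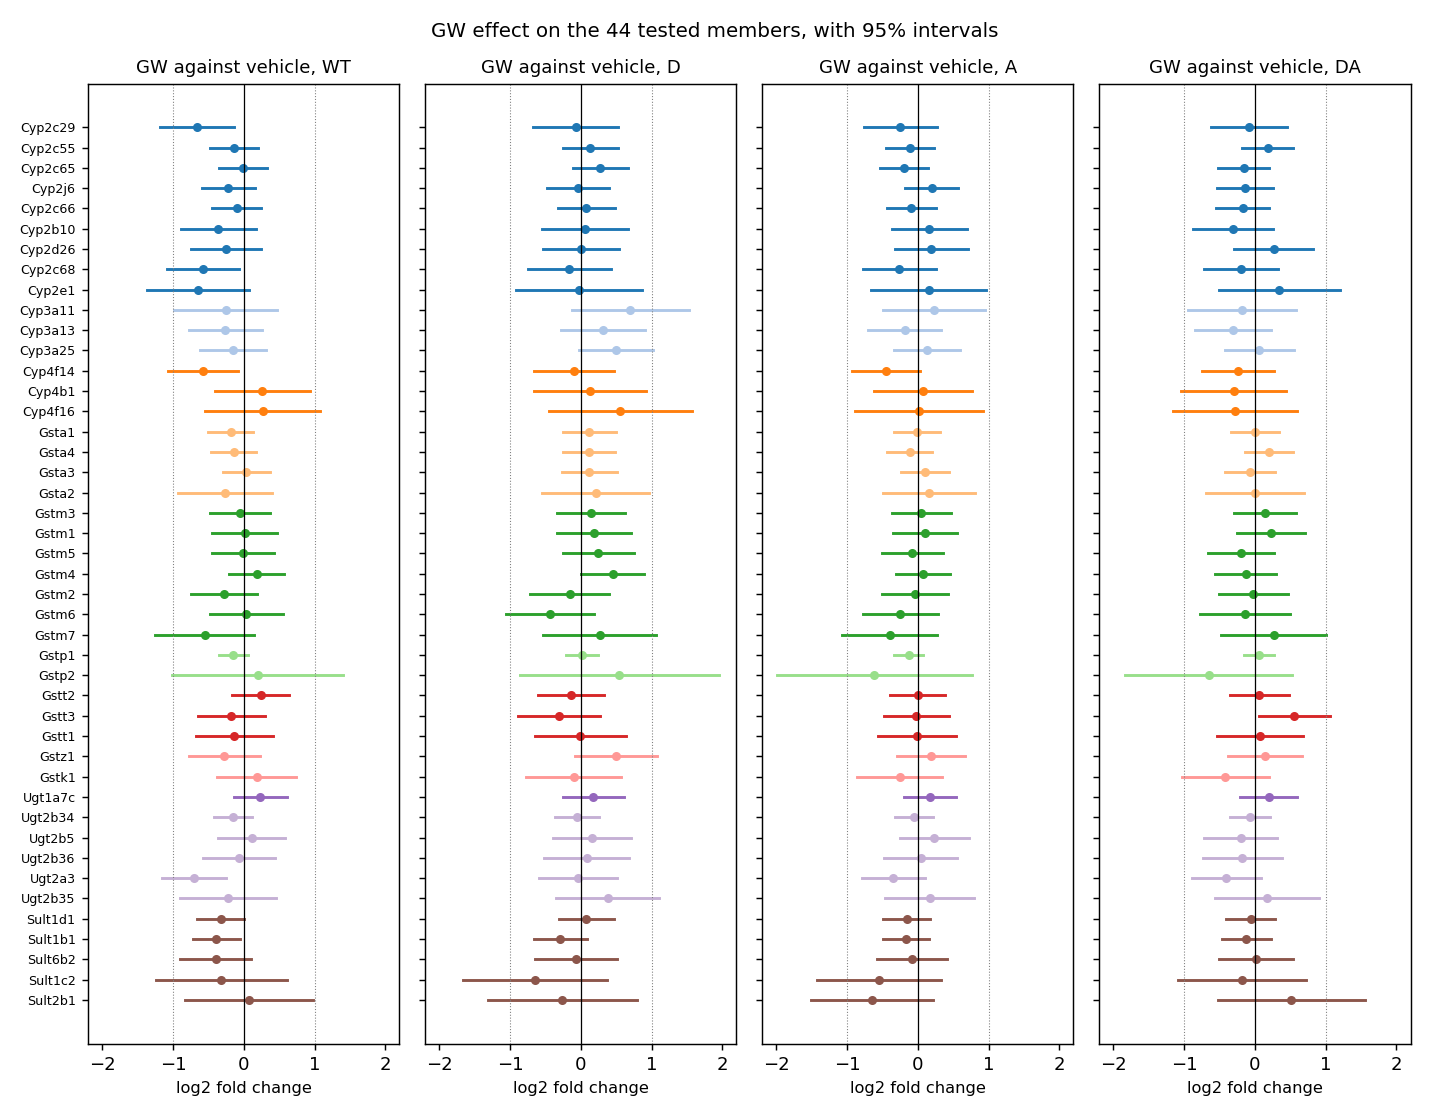
Log2 fold change of GW against vehicle for the 44 tested members in each genotype, with 95% intervals (lines), coloured by family; dotted lines mark 2-fold. Most intervals cross 0. In WT those of Ugt2a3, Cyp2c29, Sult1b1, Cyp4f14 and Cyp2c68 lie below it. Those of Gstm4 in D and Gstt3 in DA lie above it.

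In the knockouts, too, no member was called for GW by edgeR, DESeq2 or limma-trend. In D, 0% of all tested genes were called and 1 member had an unadjusted p under 0.05, where 3.24% of genes did. That member was Gstm4, a class mu transferase, with 33.1, 52.8, 53.8, 59.9 and 60.6 CPM in vehicle and 59.9, 71.8 and 84.6 CPM under GW (log2 fold change 0.45 ± 0.22, edgeR adjusted p = 0.9999). Without Veh_D replicate 4 its value was 0.29. Of the members, 27 were higher and 17 lower, but this turned to 17 and 27 without GW_D replicate 3 and to 15 and 29 within the libraries numbered 1 to 36. The 3 Cyp3 genes were all above 0, and the value of Cyp3a25 (0.50 ± 0.26) came from GW libraries of 87.7, 104 and 214 CPM, against 75.4 to 118 CPM in vehicle. The highest of these 3 libraries stands apart from the others. Without it (GW_D replicate 3) the value was 0.12, and within the libraries numbered 1 to 36 it turned to -0.062.

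In A, 0.306% of all genes were called for GW, and 0 members had an unadjusted p under 0.05, where 3.59% of genes did. Of the members, 18 were higher and 26 lower, a lean that turned to 23 and 21 without GW_A replicate 1 or Veh_A replicate 2, and to 24 and 20 without GW_A replicate 2. Cyp4f14 had 99.2 to 188 CPM in A vehicle and 68.1 to 137 CPM under GW (log2 fold change -0.45 ± 0.24, edgeR adjusted p = 0.999). Ugt2a3 had -0.35 ± 0.22 (edgeR adjusted p = 0.999). All 5 Sult genes were below 0, with a median of -0.17. For 40 of the 44 members the interval lay within 2-fold of no change.

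In DA, 0% of all genes were called for GW, and 1 member had an unadjusted p under 0.05, where 3.2% of genes did. Gstt3, a class theta transferase, had 24.6, 24.7, 26.4 and 37.1 CPM in vehicle and 25.0, 33.2, 43.4, 45.6 and 60.5 CPM under GW. The groups overlapped, and the log2 fold change was 0.56 ± 0.25 (edgeR adjusted p = 0.9998). Ugt2a3 had -0.40 ± 0.24 in DA, with the same adjusted p, and -0.26 without Veh_DA replicate 3. Of the members, 18 were higher and 26 lower, which turned to 25 and 19 without that library.

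The responses of the knockouts were compared with that of WT in the same fit, and these comparisons share the WT libraries. No tested member differed in D, A or DA by edgeR, DESeq2 or limma-trend, and 0%, 0% and 0.0816% of all genes did. At an unadjusted p of 0.05, 0, 0 and 1 members passed, where 3.22%, 3.33% and 4.1% of genes did, and the 1 was Gstt3 (0.74 ± 0.34, edgeR adjusted p = 0.9999). In D minus WT, 36 members were above 0 and 8 below, with a median of 0.26. Without GW_D replicate 3 this was 30 and 14, with a median of 0.14. The smallest p in D minus WT belonged to Gstz1 (0.77 ± 0.38), which acts on maleylacetoacetate, and Cyp3a25 (0.66 ± 0.35, and 0.28 without GW_D replicate 3). Those in A minus WT belonged to Cyp2j6 (0.41 ± 0.26) and Cyp2e1 (0.80 ± 0.54, and 0.49 without Veh_A replicate 4), and Cyp2e1 came next to Gstt3 in DA minus WT (1.00 ± 0.55). That last value turned to -0.44 within the libraries numbered 37 to 60. The intervals are wide here: 22, 26 and 24 of the 44 members in D, A and DA had one within 2-fold. Cyp2c29 under GW thus had a log2 fold change of -0.67 in WT and -0.07 in D, -0.25 in the A genotype and -0.08 in DA, and the differences between these did not pass.

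The knockouts against WT in vehicle asked what loss of a receptor does without the agonist. No member was called in D, A or DA by edgeR, DESeq2 or limma-trend, where 0.0408%, 0.0816% and 0.326% of all genes were. Unadjusted p under 0.05 occurred in 1, 2 and 3 members, where 3.47%, 4.45% and 6.1% of genes had it. In D the 1 was Ugt2a3, with 23.5 to 45.0 CPM against 39.6 to 68.3 CPM in WT (log2 fold change -0.44 ± 0.22, edgeR adjusted p = 0.9999). Gstt2 came next, with 0.38 ± 0.20, and turned to -0.027 within the libraries numbered 37 to 60.

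Cyp2e1 and Cyp2d26 were the members with the smallest p in A and in DA. Cyp2e1, the ethanol-inducible P450, had 13.3, 19.5, 26.5, 31.5 and 37.6 CPM in WT vehicle, 1.85, 14.2, 16.5, 18.6 and 19.2 CPM in A, and 9.27, 10.2, 12.3 and 18.9 CPM in DA. The A and DA libraries lay in or below the lower part of the WT range. WT vehicle had the highest of the 8 group means (25.7 CPM). The libraries of WT under GW had 13.4 to 27.1 CPM, and those of D vehicle 12.1 to 31.1 CPM. The log2 fold changes were -0.94 ± 0.36 in A and -1.07 ± 0.39 in DA (edgeR adjusted p = 0.884 and 0.604), and without Veh_A replicate 4 the value in A was -0.62. Within the libraries numbered 37 to 60, which hold a single DA vehicle library, the DA value turned to 0.18. Cyp2d26, of the Cyp2d cluster, had 49.5, 51.7, 77.5, 77.8 and 102 CPM in WT vehicle, 40.1 to 65.9 CPM in A, and 35.2, 45.2, 47.3 and 52.9 CPM in DA. Its log2 fold changes were -0.51 ± 0.25 and -0.74 ± 0.27 (edgeR adjusted p = 0.999 and 0.604). Gstm6 was the third member in DA, with 14.8, 17.0, 22.4 and 22.6 CPM against 20.8, 25.8, 27.0, 36 and 38.9 CPM in WT (-0.68 ± 0.29, edgeR adjusted p = 0.704).

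In DA against WT in vehicle, 8 members were above 0 and 36 below (median -0.15), while 49.5% of all genes were above. Within the libraries numbered 1 to 36 the split was 14 and 30. Leaving out Veh_WT replicate 2 or Veh_DA replicate 4 gave 13 and 31 in each case. The members leaned the same way in D (12 above, 32 below) and in A (11 and 33), where 50.9% and 48.6% of all genes were above. Within the libraries numbered 1 to 36 these splits were 21 and 23 in D, and 19 and 25 in A. The D, A and DA comparisons share the WT vehicle libraries, which also enter GW against vehicle in WT (12 and 32).

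Under GW, the knockouts against WT share the WT GW libraries. No member was called in D, A or DA by edgeR, DESeq2 or limma-trend, where 0.0612%, 0.184% and 0.836% of all genes were. Unadjusted p under 0.05 occurred in 1, 0 and 4 members, where 3.47%, 4.96% and 8.69% of genes had it. In D, 37 members were above 0 and 7 below, and without GW_D replicate 3 this became 26 and 18. The 1 member in D was Cyp3a25 (log2 fold change 0.64 ± 0.26, edgeR adjusted p = 0.9997), with its 214 CPM library, and had 0.26 without it. Ugt2b35 came next in D, with 0.68 ± 0.37. In A the smallest p belonged to Cyp2c29 (0.50 ± 0.26) and Cyp2c65 (-0.32 ± 0.17), both with an edgeR adjusted p of 0.989. Cyp2c29 had 0.33 without GW_A replicate 3, and Cyp2c65 had -0.18 without GW_A replicate 1 and -0.19 without GW_WT replicate 5.

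The 4 members in DA under GW were Gstm6, Cyp2c29, Gstm4 and Gsta4. Gstm6 had 22.2, 25.9, 30.3, 37.5 and 38.1 CPM in WT and 8.31, 12.5, 17.7, 18.6 and 29.3 CPM in DA, with 4 DA libraries below every WT library. Its log2 fold change was -0.85 ± 0.28 (edgeR adjusted p = 0.233), and its values are uncertain as those of a single gene. Cyp2c29 had 523, 630.3, 773, 1011 and 1176 CPM in DA against 302 to 665 CPM in WT, with 3 DA libraries above every WT library (0.78 ± 0.26, edgeR adjusted p = 0.233). It passed when genes of low count were left in (0.80, edgeR adjusted p = 0.000214), in the fit with a spread shared over genes. It also passed within the libraries numbered 37 to 60 (0.96, edgeR adjusted p = 0.00859), and it had 0.64 within 1 to 36. In the fit of libraries 37 to 60, 0.79% of its genes were called. Gstm4 had -0.55 ± 0.20 and Gsta4 0.42 ± 0.16 (edgeR adjusted p = 0.287 and 0.326). Fabp2, an enterocyte fatty acid carrier, was called in this comparison, and the summed enterocyte markers were 5163 to 7342 CPM in WT under GW and 3441 to 4377 CPM in DA, with 4 of the 11 tested higher in DA and 7 lower (median -0.18). Their part in the member values was not tested.

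**Figure D4:**
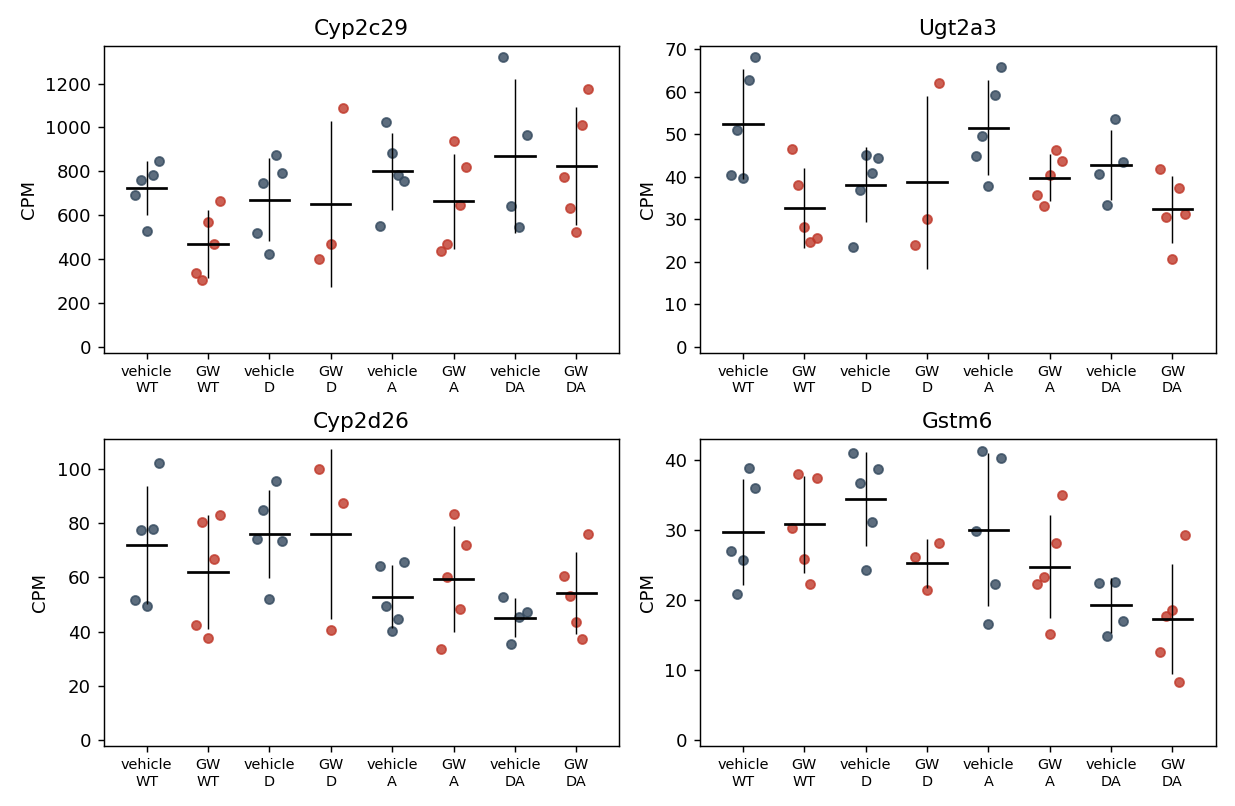
CPM of Cyp2c29, Ugt2a3, Cyp2d26 and Gstm6 in each library of the 8 groups, with the group mean (bar) and 1 SD (line). Cyp2c29 in WT runs from 527 to 848 CPM in vehicle and from 302 to 665 CPM under GW, and Gstm6 is lowest in the 2 DA groups.

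The rest of the pathway was read from a list of 59 other genes: receptors and sensors, electron donors, further phase I and phase II enzymes and transporters. Of these, 41 were tested and 0 were called in any of the 13 comparisons by edgeR, where 0% to 0.836% of all genes were. At an unadjusted p under 0.05 there were 0 to 7, where 3.2% to 8.69% of all genes had it. The 7 were in DA against WT in vehicle, where 6.1% of all genes had it. DA against WT under GW had 6, where 8.69% did. Under GW in WT, 27 were above 0 and 14 below, and 4 had an unadjusted p under 0.05, where 6.18% of all genes did. Por, the reductase that supplies electrons to microsomal P450 enzymes, had a log2 fold change of 0.87 ± 0.28 in WT and 0.81 ± 0.28 in A (edgeR adjusted p = 0.328 and 0.693). Cbr3, a carbonyl reductase, had 0.48 ± 0.18, while Cyb5a, which also passes electrons to P450 enzymes, had -0.27 ± 0.12 (edgeR adjusted p = 0.526 and 0.695). In DA against WT under GW, 10 were above 0 and 31 below, and Mgst1, a membrane-bound glutathione transferase, had -0.53 ± 0.16 (edgeR adjusted p = 0.122). Among the receptors and sensors, Ahr, Ahrr and Nr1i2 had 71, 4 and 177 counts in all and were not tested, while Nr1i3 had 280 and was tested.

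Finally, the numbers in the column headers, which no label explains, divide the libraries into 23 numbered 1 to 36 and 14 numbered 37 to 60, and every group has libraries in both sets. With the 8 groups in the fit, 11 of the 44 members (25%) differed between these sets by edgeR, where 24.2% of all genes did, so members differed about as often as other genes. Of the 11, 7 were higher in 37 to 60. The Ugt1a cluster had 346 ± 53.1 CPM (SD, n = 23) in the first set and 515 ± 83.1 CPM (n = 14) in the second, and Cyp2b10, the standard target of the constitutive androstane receptor, had 185 ± 48.0 and 298 ± 57.6 CPM. Sult1c2 had 76.4 ± 32.4 and 44.9 ± 18.5 CPM.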

How the data were processed

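Gene counts, as whole numbers by Ensembl identifier, were deposited by the authors beside a table of log2 values that, by its values, holds log2 of CPM plus 1. The software was Salmon 1.1.0, with edgeR 3.26.8 under R 3.6.2, on build mm10, per the submitters' processing notes. The annotation release and any use of molecular identifiers are not given in the sources used here. In the deposited log2 table, 90.5% of the nonzero values back-transform to within 0.01 of a whole count and the others do not. Because of those others, the deposited counts are read as rounded estimates. The back-transform used library totals inferred from values of 1 count, most of them taken as exactly 1. Counts were the basis of every test. Of 57 columns, 20 were not used (19 marked KD, and 1 of the 4 named GW in D), and the 37 used were joined to groups by column name. Symbols from GENCODE M21 (GRCm38) matched 54109 of 54352 identifiers.

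Genes were filtered with filterByExpr, scaled by TMM and fitted over all 8 groups with edgeR 4.0.16 (glmQLFTest, R 4.3.3), with Benjamini-Hochberg adjustment over 4902 genes and a threshold of 0.05. Alternatives used DESeq2 1.42.0, limma 3.58.1, other filters, scaling and libraries, and each library left out. The fit was tested on simulated data. Floors use 3 counts over a group and intervals are 95% exact, and both cover counting error only. Named were all Cyp4a genes, the 2 most abundant members per family and the 2 with the smallest p per comparison, plus any tested member. The members and lists were chosen with earlier results of these data known. 1 set of coding ends is not reported here.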

Additional observations from a re-analysis of the deposited data

Results flagged for a closer look

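Single libraries stood apart from the rest of their group in 13 of the 214 member-by-group sets checked over 31 genes, by Dixon's test at its 95% critical value, which by construction marks about 1 in 20 such sets when nothing stands apart. High libraries were seen for Cyp2c55 in A under GW (784 CPM, next 485), Cyp2c65 in DA under GW (408 CPM, next 277), Cyp2e1 in WT under GW (27.1 CPM, next 16.5) and Cyp3a13 in A vehicle (521 CPM, next 329). Cyp4b1 in A vehicle reached 37.8 CPM (next 22.7), Gstt3 in DA vehicle 37.1 CPM (next 26.4) and Ugt2b35 in D vehicle 27.4 CPM (next 13.6). Gstp2, whose end is shared with Gstp1, reached 42.5 CPM in WT under GW (next 14.1) and 23.4 CPM in D vehicle (next 9.78). Low libraries were seen for Gstm4 in D vehicle (33.1 CPM, next 52.8) and in DA under GW (28.9 CPM, next 45.8). For Cyp4a10 the high library in A under GW (2.01 CPM) and in DA under GW (2.53 CPM) is a single count against 0 in the others.

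The GW response of Cyp4a10 in A and DA was set against that in WT. With vehicle at 0 in WT, A and DA, these values are the tests under GW already given and add no evidence: -9.41 CPM in A minus WT (exact permutation p = 0.00794, adjusted 0.0278) and -9.31 CPM in DA minus WT (exact permutation p = 0.0238, adjusted 0.0556). The second missed the threshold after adjustment.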

How the results depend on the processing

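The count of called members was 0 in all 13 comparisons and stayed 0 with DESeq2, limma-trend, RLE scaling, the groups compared alone, a term for library numbers, libraries 1 to 36 alone, no columns with the suffix 2, and each library left out. With no filter it became 2 for GW in WT (Cyp4a10, Cyp2c29), 1 for A against WT under GW (Cyp4a10) and 2 for DA against WT under GW (Cyp4a10, Cyp2c29). The fit without the filter used a spread shared over genes, so these calls do not carry each gene's own spread. A filter at a minimum count of 2, added after the data were seen, gave 1 for GW in WT (Cyp4a10). That gene entered only through GW libraries of WT and D, so this call is no support. The fit of libraries 37 to 60 alone left a single library in DA vehicle and in GW in D, so its calls are not given. The permutation tests of Cyp4a10 could not reach 0.05 within libraries 1 to 36 or within 37 to 60, where few libraries remain. The GW difference there was 10.3 and 9.13 CPM in WT and 9.23 and 5.64 CPM in D (the last with no test). Against WT under GW it was -10.3 and -8.12 CPM in A and -9.42 and -9.13 CPM in DA. Exact permutation p over these tests was 0.1 to 0.333. Without the columns with the suffix 2 the DA value was -10.1 CPM (p = 0.0857, exact permutation). Leaving out each library of D gave 5.07 to 9.87 CPM for GW in D, with exact permutation p of 0.0571 to 0.0952. These are the smallest p-values that the remaining libraries allow, so the test could not reach 0.05 in any case. Direction turned, with no value past the threshold on either side, for Gstt2 in D against WT in vehicle (-0.027), Cyp2e1 in DA against WT in vehicle (0.18) and Cyp2e1 in the response of DA minus WT (-0.44) within 37 to 60, and for Cyp3a25 under GW in D (-0.062) within 1 to 36; the cause was not tested. No paired analysis was possible because the columns carry no replicate numbers. A median of 483848 counts per library leaves 51 members with counts untested, and Cyp4a10 rests on 39 counts.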
